A study of Mus musculus with 6 samples.

Results

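Gap junction connexins grouped as epidermal, encoded by Gja1, Gjb2, Gjb5, Gjb6 and Gjc1, were followed in bulk tumour RNA with and without Yap deletion. The 5 genes were picked by symbol from the 23337 genes of the deposited table, at a time when results of the same knockout comparison, the Gjb6 difference among them, were already known. Their knockout and wild-type values are therefore a description of these libraries and not independent evidence. RNA came from basal cell carcinomas (BCC) of the ear epidermis of mice given tamoxifen at 4 weeks of age, and each sample's stage label gives 6 weeks between tamoxifen and sampling. The knockout group held 3 libraries of the genotype R26-SmoM2/+ Yapfl/fl K14CreER. The wild-type group held 3 libraries of the genotype R26-SmoM2/+ K14CreER. Both groups carry SmoM2, an always-active form of the Hedgehog transducer Smoothened, so neither is normal skin. K14CreER is a tamoxifen-dependent recombinase made in Krt14-expressing keratinocytes, so cells of other types, and keratinocytes that escaped recombination, keep their Yap gene. The labels do not say whether each library is a separate mouse or a pool, so every p-value measures the spread between these libraries, which may be technical.

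Connexins are multi-pass membrane proteins that assemble into hexameric channels, and channels of neighbouring cells dock to form a gap junction through which ions and small metabolites pass. The epidermis makes several connexins at once, with Gja1 widespread in the basal and lower suprabasal layers and the beta connexins in varying layers and in hair follicles. Mutations of GJB2 in people cause deafness with or without skin disease, and mutations of GJB6 cause hidrotic ectodermal dysplasia.

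The 5 genes lie at 4 separate places in the genome. In the GENCODE M21 annotation of GRCm38, Gjb6 occupies chromosome 14, 57123303 to 57133611, and Gjb2 occupies chromosome 14, 57098600 to 57104702, both on the minus strand and 18601 bp apart. Gja1 lies on chromosome 10, 56377330 to 56402513, plus strand. Gjb5 lies on chromosome 4, 127354809 to 127358181, minus strand. Gjc1 lies on chromosome 11, 102799579 to 102819700, minus strand. All are annotated as protein coding, and no other annotated gene overlaps any of them. RefSeq promoters on GRCm38.p6 were found for 4 of the 5, all but Gjc1. Below are the 250 bases before the transcription start of the neighbours Gjb6 and Gjb2, which differed in pattern across the libraries, and of Gja1, which varied along with Gjb2. They are written 5′ to 3′ on the gene's strand, with capitals marking a match to the AP-1 motif.
Gjb6 (chr14:57133612-57133861, minus strand): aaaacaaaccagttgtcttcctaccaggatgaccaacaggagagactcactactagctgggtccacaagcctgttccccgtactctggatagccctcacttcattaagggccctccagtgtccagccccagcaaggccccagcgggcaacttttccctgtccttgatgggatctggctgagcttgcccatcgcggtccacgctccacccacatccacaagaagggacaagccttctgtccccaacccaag
Gjb2 (chr14:57104703-57104952, minus strand): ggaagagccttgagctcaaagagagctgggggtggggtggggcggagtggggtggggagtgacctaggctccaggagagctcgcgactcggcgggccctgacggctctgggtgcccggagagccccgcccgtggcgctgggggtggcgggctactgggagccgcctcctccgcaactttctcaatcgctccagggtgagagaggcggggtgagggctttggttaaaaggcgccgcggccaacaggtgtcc
Gja1 (chr10:56377050-56377299, plus strand): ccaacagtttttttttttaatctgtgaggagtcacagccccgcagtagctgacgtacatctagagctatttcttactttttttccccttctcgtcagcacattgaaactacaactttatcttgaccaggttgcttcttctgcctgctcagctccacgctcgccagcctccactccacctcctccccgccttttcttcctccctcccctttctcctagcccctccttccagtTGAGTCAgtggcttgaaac
Since YAP-TEAD and c-JUN appear in the title of the study, and the tumours are driven by Hedgehog signalling, 3 motifs were searched on both strands. These were GGAATG, bound by TEAD factors; TGANTCA, bound by AP-1 dimers; and GACCACCCA, bound by GLI factors. Gja1 held the 1 match among the 4 promoters, the AP-1 word TGAGTCA, whose first base is 19 bases before the start. In all 32851 RefSeq promoters, windows of the same length held GGAATG in 12.6%, TGANTCA in 6.75% and GACCACCCA in 0.225%. A match says that the letters are present, not that a factor binds there.

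The libraries held 15572640 to 25179110 reads in the knockout group and 15405490 to 25260431 reads in the wild-type group. Yap1, the targeted gene, had 591, 773 and 1764 normalized counts in knockout libraries 1 to 3, against 5765, 6004 and 5573 in wild-type libraries 1 to 3, a log2 difference of −2.63 with an adjusted p of 0.517 in limma and 1.4e-07 in DESeq2. Codes in the labels begin with DM24 for library 3 of each group and with DM22 for libraries 1 and 2, and the sources used here do not say what the codes mark. The DM24 libraries were the shallowest of their groups, had 58654 and 59594 normalized counts of Xist against 8.62 to 15.1 in the DM22 libraries, and had no read of the Y-linked gene Ddx3y. Code series, sex and depth thus cannot be told apart. Krt5, a basal keratinocyte marker, was the top transcript of all 6 libraries, at 1.11% to 1.59% of the reads. The summed basal keratinocyte list was 545004 to 567227 normalized counts in knockout and 485491 to 695051 in wild type. The hair follicle list summed to 242123 to 270465 in knockout and 228303 to 258855 in wild type. Of markers of other cell types, Ptprc, of immune cells, ran from 0 to 1.26 normalized counts in knockout libraries and 0 to 3.36 in wild-type libraries, and Emcn, of endothelial cells, was at 0 in all 6. The summed immune list was 397 to 636 normalized counts in knockout and 207 to 499 in wild type, and the endothelial list 150 to 173 in knockout and 133 to 187 in wild type. Fibroblast and mural lists were higher. The fibroblast list, carried by Dcn and Fbln1, summed to 4452 to 10465 in knockout and 7628 to 12936 in wild type, and the mural list, carried by Cspg4, to 10535 to 11783 in knockout and 8780 to 11015 in wild type. In bulk RNA, fewer cells of a type and less RNA per cell cannot be told apart.

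Gjb6 stood out among the 5 by its separation of the genotypes. Its protein is an epidermal and inner-ear connexin that can share channels with the product of its neighbour Gjb2. Gjb6 had 1115, 1372 and 1022 normalized counts in knockout libraries 1 to 3, against 459, 720 and 454 in wild-type libraries 1 to 3. Every knockout library was above every wild-type library, with the lowest knockout value above the highest wild-type value. The values rest on 808 to 1664 reads in knockout libraries and 349 to 752 reads in wild-type libraries. The means were 1169 ± 181 in knockout and 544 ± 152 in wild type (SD, n = 3 each), a ratio of 2.15. The log2 difference, knockout minus wild type on the scale of log2(normalized count + 1), was 1.13 with a standard error of 0.21 and a 95% interval of 0.61 to 1.64. Libraries with the same number differed by 1.28, 0.93 and 1.17 on the log2 scale, the last of these being the DM24 pair. Within DM22 the pairing rests on the labels' numbers alone, and the spread of these differences depends on it. The knockout effect on Gjb6 differed between the code series by 0.07 on the log2 scale, with a 95% interval of −1.07 to 1.20 (limma). DM24 has 1 library per genotype, and the interval holds differences as large as the Gjb6 effect itself.

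Whether Gjb6 passed a threshold depended on the test. Limma, with Benjamini-Hochberg adjustment over 13671 genes, gave Gjb6 an adjusted p of 0.667 and called 0 of the 5 connexins, with 0% of all genes called in either direction at 0.05. At an unadjusted p under 0.05, limma had 759 genes, and edgeR, which also called 0, had 770. DESeq2, run on the whole reads recovered from the table, gave Gjb6 a log2 difference of 1.11 ± 0.24 (SE) and an adjusted p of 0.00182. It called 1 of the 5 connexins higher, with 0.168% of all genes called higher and 0.490% called in either direction. With the replicate number as a block, DESeq2 gave Gjb6 an adjusted p of 7.7e-10, with 0.417% of genes called higher. Within DM22 the pairs behind this block rest on the labels' numbers alone. A code series term in DESeq2 gave an adjusted p of 1.2e-05, with 0.761% of genes called higher. Leaving out knockout library 2 raised the DESeq2 adjusted p to 0.155, and leaving out wild-type library 1 raised it to 0.138, while the other 4 omissions kept it under 0.05. Of the 5 connexins, 1 had every knockout library above every wild-type library, a pattern seen in 5.08% of all genes tested. Since the genes were chosen with this comparison in view, nothing is read from these counts.

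**Figure D1:**
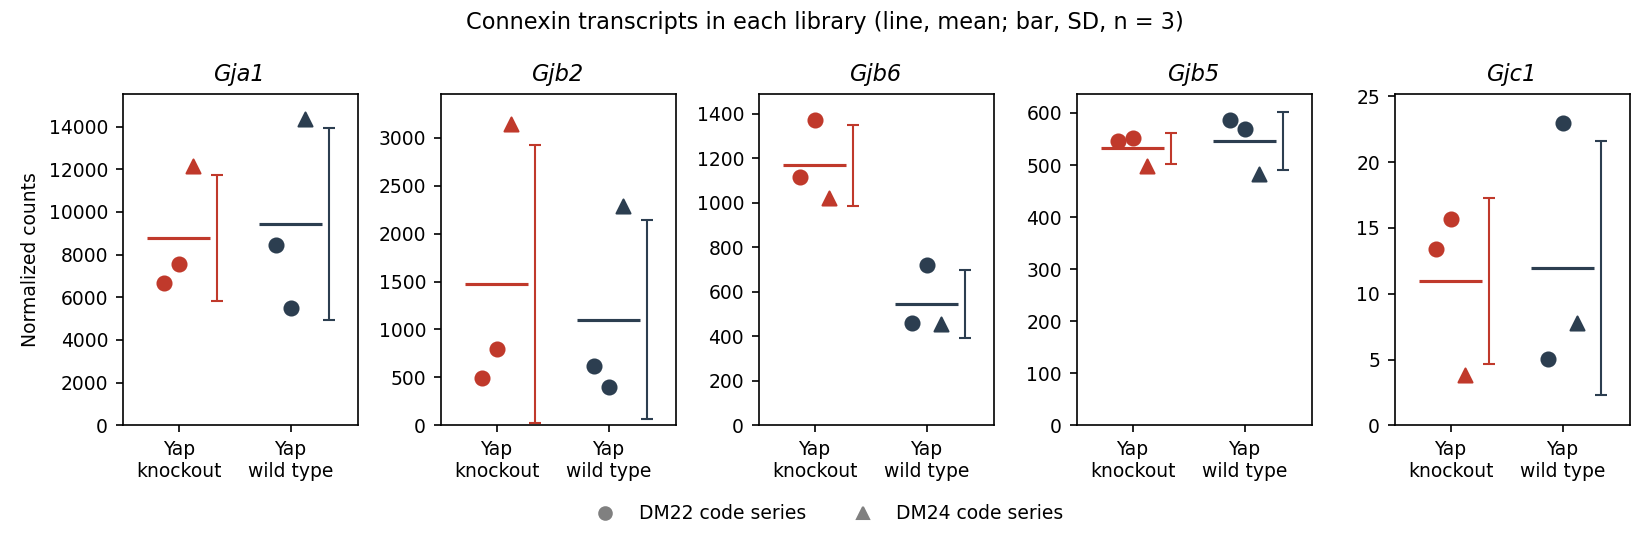
Normalized counts of the 5 connexins in each library, on linear axes from 0 with 1 panel per gene and its own scale. Points are single libraries (triangles DM24, circles DM22), horizontal lines are means and bars are SD (n = 3). Gjb6 separates the genotypes, at 1022 to 1372 in knockout and 454 to 720 in wild type, while Gja1 and Gjb2 are highest in the DM24 library of each genotype.

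Gja1, Gjb2, Gjb5 and Gjc1 overlapped between the genotypes. Gja1, the most widely expressed connexin of the body, had 6652, 7579 and 12155 normalized counts in knockout libraries 1 to 3, against 8433, 5501 and 14337 in wild-type libraries 1 to 3. Library 3 was the highest of each genotype. The Gja1 means were 8795 ± 2946 in knockout and 9423 ± 4500 in wild type (SD, n = 3 each), and the log2 difference was −0.04 with a 95% interval of −0.98 to 0.91 (limma). Gjb2, the beta connexin often mutated in inherited deafness, had 491, 791 and 3140 normalized counts in knockout libraries 1 to 3, against 622, 397 and 2292 in wild-type libraries 1 to 3. Again library 3 was the highest of each genotype, and the other 4 libraries overlapped. Gjb2 averaged 1474 ± 1450 in knockout and 1104 ± 1035 in wild type (SD, n = 3 each), and its log2 difference of 0.37 had a 95% interval of −1.79 to 2.52 (limma). The gap between libraries 1 and 2 and library 3 widens both intervals. With the code series as a term in limma the interval was −0.23 to 0.96 for Gjb2 and −0.48 to 0.40 for Gja1, and with the replicate number as a block it was −0.33 to 1.06 for Gjb2 and −0.51 to 0.43 for Gja1. In the same 2 fits the Gjb6 interval was 0.67 to 1.58 and 0.88 to 1.37, above that of Gja1 and overlapping that of Gjb2. The genes were not tested against each other.

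Gjb5 was the steadiest of the 5. It encodes a connexin of stratified epithelia and, in mice, the placenta. Gjb5 had 546, 552 and 498 normalized counts in knockout libraries 1 to 3, against 586, 569 and 483 in wild-type libraries 1 to 3. The groups overlapped completely, at 532 ± 29.3 in knockout and 546 ± 55.4 in wild type (SD, n = 3 each). The log2 difference of −0.03 had a 95% interval of −0.29 to 0.23 (limma), which leaves out changes of the size of the Gjb6 difference. Gjc1, known as a connexin of the embryonic heart and of vascular smooth muscle, was near the lower limit of detection. It had 15, 19 and 3 reads in knockout libraries 1 to 3, against 6, 24 and 6 in wild-type libraries 1 to 3. A library with 0 reads would still allow 2.47 to 3.90 normalized counts (3 reads, counting error only), so the lowest Gjc1 value, 3.79 in knockout library 3, sat at that floor. The Gjc1 log2 difference was −0.05 with a 95% interval of −1.83 to 1.73 (limma), and a difference was not detectable at this depth.

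**Figure D2:**
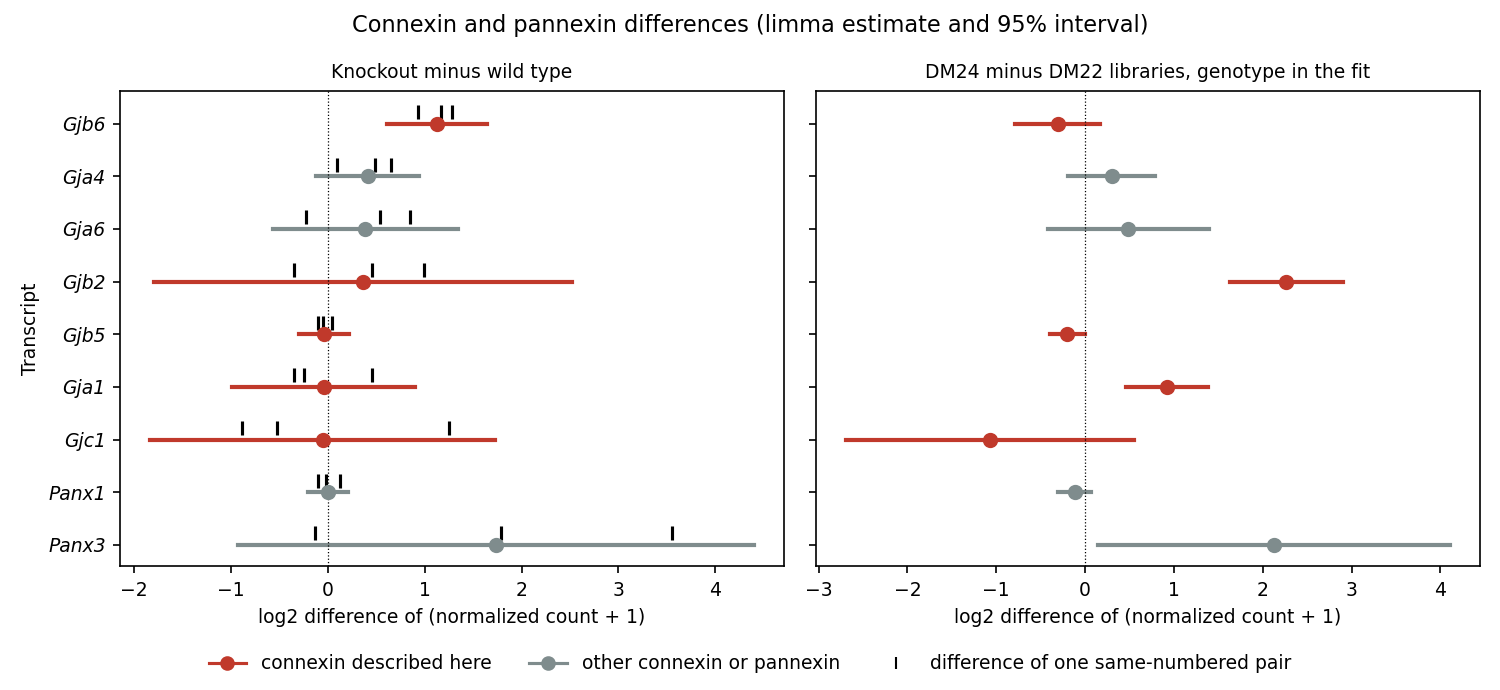
Log2 differences (limma, on log2(normalized count + 1)) with 95% intervals for 7 connexins and 2 pannexins, knockout minus wild type on the left, where ticks mark the same-numbered pairs, and DM24 minus DM22 with genotype in the fit on the right. On the left the interval lies above 0 for Gjb6 (0.61 to 1.64) alone of the genes drawn. Gjb6 was picked with this comparison known, and its limma adjusted p was 0.667. On the right the interval lies above 0 for Gja1 (0.46 to 1.39), Gjb2 (1.63 to 2.90) and Panx3, whose limma adjusted p was 0.149. There it lies below 0 for Gjb5 (−0.39 to −0.0037), whose limma adjusted p was 0.163.

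Between the code series, a contrast that played no part in choosing the genes, 2 of the 5 connexins were called higher in DM24 by limma, with 2.68% of all genes called higher and 6.75% called in either direction. Over the whole connexin family, limma called the same 2 of 9 tested genes. Gjb2 was higher in both DM24 libraries, which averaged 2716 normalized counts against 575 in the 4 DM22 libraries. The Gjb2 log2 difference was 2.27 ± 0.25 (SE), with a limma adjusted p of 0.0170. Gja1 averaged 13246 normalized counts in DM24 and 7041 in DM22, a log2 difference of 0.92 ± 0.19 (SE) with a limma adjusted p of 0.0486. For both genes each DM24 library was above each of the 4 DM22 libraries. The Gja1 call was the weaker: its adjusted p was 0.0508 under TMM scaling, and it was 0.161, 0.111 and 0.228 without knockout library 1, 2 or 3 and 0.224 without wild-type library 3. The Gjb2 adjusted p was 0.165 without knockout library 3 and 0.101 without wild-type library 3, each of which leaves 1 DM24 library. The log2 difference was −0.31 for Gjb6 (limma adjusted p of 0.336), −0.20 for Gjb5 (0.163) and −1.07 for Gjc1 (0.324), and none of these 3 was called. Each of these estimates rests on 1 DM24 library per genotype.

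Markers of several cell types also differed between the code series. Of 11 tested markers of differentiated keratinocytes, 3 were called higher in DM24 by limma: Dsc1, a desmosomal cadherin (2.19), Tgm1, which cross-links the cornified envelope (1.95), and Grhl3, a barrier transcription factor (1.89), all as log2 differences. The list had a median log2 difference of 1.03 between the code series, against −0.0002 over all genes, with 8 markers above 0 and 3 below. Its summed level was 31241, 36477 and 110221 normalized counts in knockout libraries 1 to 3, against 32369, 45640 and 49811 in wild-type libraries 1 to 3. Between the genotypes, limma and DESeq2 called 0 markers of this list and of the other 10 cell type lists. Of all genes, 0% (limma) and 0.490% (DESeq2) were called there, so nothing about the markers is read from this. Between the code series, limma called 5 markers of the other lists. Krt6a of the hair follicle list (1.57), Mgst1 of the sebaceous list (1.83) and Notch3 of the mural list (1.17) were higher in DM24, and Trp63 of the basal list (−0.56) and Dcn of the fibroblast list (−2.10) were lower, as log2 differences. Of the 7 basal keratinocyte markers, 6 lay below 0, with a median of −0.29. The median was 0.86 for fibroblast, 0.70 for mural, 0.69 for melanocyte and 0.39 for sebaceous markers. It was below 0 for muscle and cartilage (−0.73), immune (−0.45), endothelial (−0.39), Schwann (−0.09) and hair follicle (−0.08) markers. The summed fibroblast list was lowest in the DM24 library of each genotype, against the sign of its median. The part of these cell types in the connexin values was not tested.

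**Figure D3:**
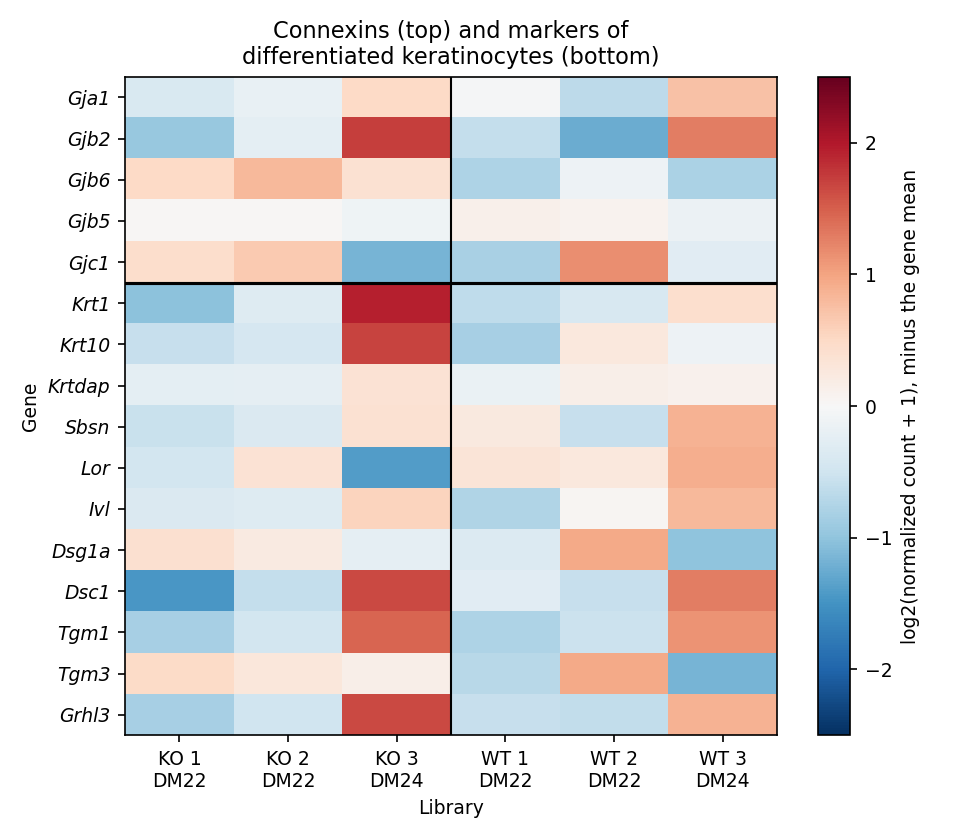
Levels of the 5 connexins (top) and of 11 markers of differentiated keratinocytes (bottom) in each library, coloured as log2(normalized count + 1) minus the gene's mean over the 6 libraries, with knockout libraries (KO) left of wild-type libraries (WT). Gjb2 and Gja1 share high values in the DM24 libraries with Dsc1, Tgm1 and Grhl3, and Gjb6 is high in the 3 knockout libraries.

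Relative abundance was compared as reads per kilobase, since read counts of genes of different length cannot be set side by side. Gjb6 reached 20.2, 24.7 and 19.4 RPKM (reads per kilobase, scaled to library depth) in knockout libraries 1 to 3, against 8.08, 12.3 and 8.47 RPKM in wild-type libraries 1 to 3. Mean levels in knockout and wild type were 42.4 and 44.3 RPKM for Gja1, 30.7 and 22.4 RPKM for Gjb2, 15.2 and 15.0 RPKM for Gjb5, and 0.106 and 0.112 RPKM for Gjc1. Gjc1 was thus the lowest of the 5 by a wide margin. All 20 connexins of the table together took 11200 to 17420 reads per library, or 0.0490% to 0.109% of the reads. Of the family's reads per kilobase, Gjb6 made up 9.96% ± 2.96 in knockout and 5.26% ± 2.54 in wild type (SD, n = 3 each). The Gjb6 shares overlapped, since knockout library 3, at 6.57%, was below wild-type library 2, at 8.13%. Gjb2 made up 5.50%, 7.74% and 22.4% in knockout libraries 1 to 3, against 6.50%, 4.99% and 18.7% in wild-type libraries 1 to 3. Both genotypes had the high Gjb2 share in the DM24 library. Gjb5 made up 7.02% ± 1.84 in knockout and 8.01% ± 2.29 in wild type (SD, n = 3 each). Gja1 made up 18.4% ± 1.70 in knockout and 21.4% ± 5.65 in wild type (SD, n = 3 each).

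The place of Gja1 in this order depended on the length used. Its union of exons measures 10257 bases and its longest transcript 3889 bases. By union length Gja1 had the largest share of the family in wild-type library 3 alone. By longest transcript it had the largest share in all 6 libraries, at 36.2% in knockout and 40.6% in wild type. The balance of the 2 neighbours on chromosome 14 also varied by library: Gjb6 had 2.04, 1.56 and 0.293 times the per-kilobase level of Gjb2 in knockout libraries 1 to 3, against 0.664, 1.63 and 0.178 in wild-type libraries 1 to 3. Gjb2 exceeded Gjb6 per kilobase in both DM24 libraries and in wild-type library 1. These shares are a description, with no test.

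**Figure D4:**
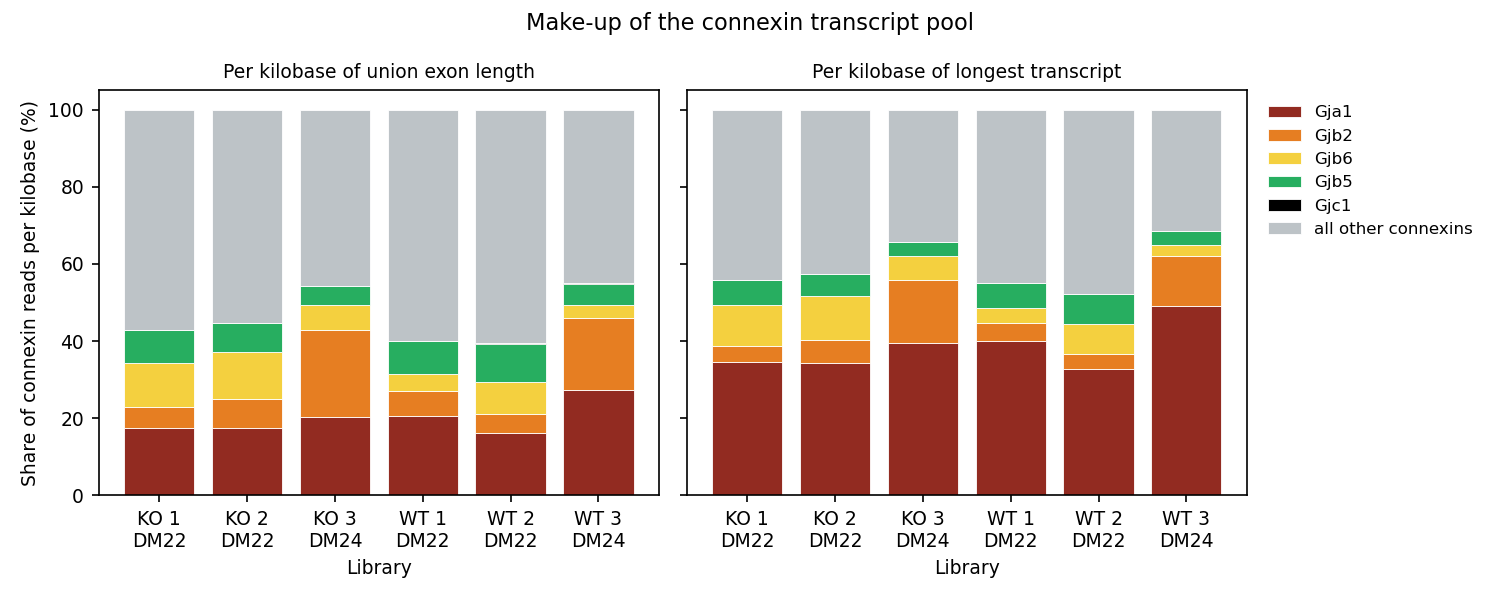
Share of the connexin family's reads per kilobase in each library, in percent, stacked by gene, by union exon length (left panel) and by longest transcript (right panel), with knockout libraries (KO) left of wild-type libraries (WT). By union exon length the Gjb6 share averages 9.96% in knockout and 5.26% in wild type, and the Gja1 share is larger in the right panel in all 6 libraries.

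Among the other 15 connexins in the table, 4 passed the filter of a mean of at least 10 normalized counts. Neither limma nor DESeq2 called any of these between the genotypes, where 0% (limma) and 0.490% (DESeq2) of all genes were called. Between the code series limma called 0 of these 4, against 6.75% of all genes, and nothing is read from this. Gja4, known from endothelium, averaged 117 ± 27.6 normalized counts in knockout and 86.1 ± 4.26 in wild type (SD, n = 3 each), a log2 difference of 0.41 with a 95% interval of −0.12 to 0.95 (limma). Gja6, at 11 to 24 reads per library, had a log2 difference of 0.39 with a 95% interval of −0.56 to 1.34 (limma). Gjd2 and Gje1 had no read in any library. Of the pannexins, relatives in channel structure that do not form gap junctions in most cells, Panx1, an ATP release channel, averaged 991 ± 19.7 normalized counts in knockout and 992 ± 83.7 in wild type (SD, n = 3 each). Panx3 had 23, 7 and 15 reads in knockout libraries 1 to 3, against 1, 1 and 16 in wild-type libraries 1 to 3, and its groups overlapped.

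Gap junction partners, genes whose products bind, phosphorylate, traffic or clear connexins, were counted as a list. Of 29 partner genes in the table, 28 were tested, and limma and DESeq2 called 0 of them between the genotypes. The shares over all genes were 0% in limma and 0.490% in DESeq2, so nothing about the partners is read from this. Tjp1, the scaffold that binds the Gja1 tail, averaged 2187 ± 67.1 normalized counts in knockout and 2178 ± 146 in wild type. Cav1, a caveolar protein, averaged 6744 ± 80.7 in knockout and 7407 ± 1120 in wild type (SD, n = 3 each for both genes). Src, a tyrosine kinase that phosphorylates Gja1, averaged 2079 in knockout and 2018 in wild type. Cnst, a connexin recycling factor, averaged 1902 in knockout and 1911 in wild type, and it was the 1 partner called lower in DM24 by limma, with a log2 difference of −0.51 and an adjusted p of 0.0393. Over all genes tested, 4.07% were called lower in DM24, so 1 of 28 is no more than the background. With the code series as a term, DESeq2 called 1 partner higher in knockout, Ezr, a membrane-cytoskeleton linker, at a log2 difference of 0.33; it was named after its values were seen, and 0.761% of all genes were called higher in that fit. The median log2 difference of the 28 was 0.04 between the genotypes.

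The genes beside the connexins were also counted, taking the 3 nearest protein-coding genes on each side. The 5 connexins themselves were left out, since Gjb6 and Gjb2 are among each other's neighbours. That gave 25 different genes, of which 23 were in the table and 18 were tested. Of these, 0 were called by limma or DESeq2 between the genotypes, or by limma between the code series. The shares over all genes were 0% (limma) and 0.490% (DESeq2) between the genotypes. Between the code series limma called 6.75% of all genes, and nothing about the neighbours is read from these counts. Across the 6 libraries, Gja1 and Gjb2 had a Pearson r of 0.94 on the log2 scale, and Gjb2 and Gjb6 had an r of −0.10, as a description over libraries that share code series and depth. The genes most like Gjb6 were Ube2o (r of 0.998), Oxsm (0.991) and Abhd6 (0.991). Abhd6, a monoacylglycerol lipase, averaged 323 ± 12.7 normalized counts in knockout and 226 ± 23.7 in wild type (SD, n = 3 each). It was picked by likeness to Gjb6 in these same libraries, so this difference is not separate evidence. The genes most like Gjb2 were Ccdc101 (0.996), Mlkl (0.995) and Rab24 (0.995), and those most like Gja1 were Actn1 (0.998), Ostc (0.996) and Vmp1 (0.995). Those most like Gjb5 were Rela (0.990), Peo1 (0.989) and Sgcd (0.989), and those most like Gjc1 were Zfp787 (0.997), Cdk12 (0.989) and Gtf3c1 (0.987). Gjc1 had 3 to 24 reads per library, so its r values carry much counting error. Of 10974 genes compared (10975 for Gjc1), an r of at least 0.95 was reached by 31 for Gjb6, 227 for Gjb2, 190 for Gja1, 78 for Gjb5 and 37 for Gjc1.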

How the data were processed

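RNA of 6 libraries was measured, 3 per genotype. Per the labels' protocols, libraries were made with a TruSeq RNA kit, which does not mark strand. The submitters' processing notes name STAR 2.5, DESeq2 1.18.1 and the build mm10 (GRCm38). The counter and annotation are not given in the sources used here. The authors deposited a signal table, read counts divided by 1 size factor per library. Dividing each library's values by its smallest step gave whole reads for 100% of them (tolerance 0.001 reads). Floors cover counting error only.

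The 13671 genes averaging at least 10 normalized counts were tested with limma 3.58.1 (R 4.3.3; trend, robust) on log2(value + 1), two-sided, with Benjamini-Hochberg adjustment at 0.05. This log scale understates changes of low genes. On the recovered reads, DESeq2 1.42.0 and the quasi-likelihood test of edgeR 4.0.16 were run. The code series contrast had genotype in the fit. RPKM and shares used union exon lengths of GENCODE M21, with the longest transcript as the alternative. The fits were tested on simulated data with known changes. Other alternatives were TMM or quantile scaling, other pseudocounts and filters, a replicate block, a code series term, the DM22 libraries alone and each library left out. DESeq2 with a library left out, or on the DM22 libraries alone, was added after seeing the data.

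The connexins and all lists were chosen with earlier results of these data known. Named were Yap1, connexins and pannexins passing the filter (some are not reported here), Tjp1, Cav1, Src, Cnst, any partner or neighbour called, and the 3 genes most correlated with each connexin (mean at least 50). Of 50-base words in the exons, 0.115% for Gja1 and 0.0396% for Gjc1 also occur in another gene, and 0 for Gjb2, Gjb5 and Gjb6. Both groups carry replicate numbers 1 to 3: after subtracting group means, same-numbered libraries correlated by 0.333, 0.327 and 0.694, above 0.1 in each pair, so the numbers were taken to pair them. The crossed DM22 pairs gave 0.505 (knockout 1, wild type 2) and 0.260 (knockout 2, wild type 1), and combinations across the code series gave −0.632 to −0.383. Within DM22 the pairing therefore rests on the labels' numbers alone. An exact permutation test of 3 against 3 cannot go below 0.1, so none was run.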

Additional observations from a re-analysis of the deposited data

How the results depend on the processing

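Between knockout and wild type, limma called 0 genes. DESeq2 called 67, rising to 169 under the replicate block and 303 with a term for code series. On the DM22 libraries alone limma called 2 and DESeq2 267. Leaving out 1 library gave 0 to 1 calls in limma, while DESeq2 called 53, 26 and 234 without knockout library 1, 2 or 3 and 23, 223 and 235 without wild-type library 1, 2 or 3. Between the code series limma called 923 genes and DESeq2 2056, and leaving out 1 library gave 40 to 1492 in limma. The replicate block gave Gjb6 an adjusted p of 0.123 in limma and 7.7e-10 in DESeq2, and it changed no connexin's call, that of Gjb6 included. The Gjb6 log2 difference kept its sign in all alternatives run. On the DM22 libraries alone the difference turned sign for Gja1 (0.06), Gjc1 (0.36), Panx1 (−0.0617), Tjp1 (−0.0518) and Cnst (−0.0173). Cnst also turned in edgeR (−0.0002) and DESeq2 (−0.0029). With 1 library left out, ranges crossed 0 for Gja1 (−0.37 to 0.32), Gjb2 (−0.41 to 1.10), Gjb5 (−0.12 to 0.0202), Gjc1 (−0.47 to 0.51), Panx1 (−0.0689 to 0.0462), Tjp1 (−0.0456 to 0.0503) and Cnst (−0.18 to 0.17). None of these was called. By longest transcript the Gja1 share was 36.2% in knockout and 40.6% in wild type. The causes were not tested. Depth limits Gjc1, Gja6 and Panx3, at 24 reads or fewer in every library.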
